A study of Liolophura hirtosa with 16 samples.

Results

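Of the 493 chiton sequences on the array, 4 were brighter in each of 3 sections of the radula than in foot muscle while differing less than 2-fold between the sections: Contig[0119], Contig[0224], Contig[0078] and the clone G-F7-5-SMART. They carried 19 of the 2240 probes. They were chosen on the measured values. The deposited values were log2-transformed, quantile-normalized and averaged over the probes of a sequence and over the 4 arrays of a tissue. A sequence was kept when the immature, the iron-deposited and the calcium-deposited section each lay at least 0.5 above foot muscle and when the highest section exceeded the lowest by less than 1. Differences between tissues are therefore descriptions of what was selected and carry no test.

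The animals were wild adults of the chiton Acanthopleura hirtosa (organism label: Liolophura hirtosa). RNA of 12 animals was pooled from 3 animals per array, with 4 arrays for each of the 4 tissues. The radula tissue is labelled as radula sac, and foot muscle from those individuals was the tissue outside the radula. Array values are averages over 3 animals, and in tissue RNA fewer cells of a type and less RNA per cell cannot be told apart. The files pair no sequence with a gene, so that no marker gene could be used to check the dissected tissues, and names are those of contigs and clones.

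The radula is a ribbon of tooth rows that chitons use to scrape rock. Rows are formed continuously at its inner end as a chitin scaffold, and each row is then carried forward through iron deposition, which ends in a cap of magnetite, and later through calcium phosphate deposition in the tooth core. Epithelium surrounding the teeth supplies the mineral. How much muscle or supporting tissue each section held was not measured.

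The identity of 4 arrays was in dispute between the deposited sources. The value table's columns for immature and calcium replicates 2 and 4 matched the scanner files recorded for the other of these tissues with the same number, and each of the remaining 12 columns matched its own file. Values here follow the value table, because the rule that chose the members was set on it. With its assignment, arrays of a tissue correlated at a Pearson r of 0.950 to 0.990 across probes, and immature with calcium arrays at 0.717 to 0.778. Under the files as recorded, a disputed and an undisputed array of immature, or of calcium, form one of these immature and calcium pairs. Their r then lies within 0.717 to 0.778. With the 4 disputed arrays left out, the same 4 sequences and no other met the rule. With the scanner files as recorded, 29 sequences met it, among them these 4, so that the set was far wider under that assignment.

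Contig[0078] held repeated stretches. Its probes are shown because they share runs of letters with each other, which capitals mark where at least 11 bases recur in a separate probe of the contig:
Contig[0078] bases 149 to 183: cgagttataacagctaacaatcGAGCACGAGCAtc
Contig[0078] bases 259 to 293: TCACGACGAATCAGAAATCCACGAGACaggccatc
Contig[0078] bases 307 to 341: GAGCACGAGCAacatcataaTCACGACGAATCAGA
Contig[0078] bases 464 to 498: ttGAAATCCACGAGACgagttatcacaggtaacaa
The probes at bases 259 to 293 and 307 to 341 shared 15 bases, whose copies started 68 bases apart. Those at 149 to 183 and 307 to 341 shared 11 bases at a spacing of 136, and those at 259 to 293 and 464 to 498 shared 14 bases at a spacing of 194. Among the 480 sequences with at least one pair of probes that do not overlap, 14 had a pair sharing 14 bases or more (2.92%). The other 3 members had none sharing more than 7.

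For the other members, the probe with the middle difference between radula and foot muscle is shown first and the probe with the highest difference second, as the pieces of sequence that the values below were measured on:
Contig[0119] bases 641 to 675: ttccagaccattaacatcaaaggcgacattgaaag
Contig[0119] bases 929 to 963: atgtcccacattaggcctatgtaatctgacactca
Contig[0224] bases 449 to 483: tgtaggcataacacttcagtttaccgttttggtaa
Contig[0224] bases 630 to 664: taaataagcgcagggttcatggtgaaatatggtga
G-F7-5-SMART bases 315 to 349: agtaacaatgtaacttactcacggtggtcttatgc
G-F7-5-SMART bases 605 to 639: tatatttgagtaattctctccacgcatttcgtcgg
No member probe shared a run of more than 12 bases with a probe of another sequence on either strand, and 0 of the 4 members reached the 20 bases set for naming shared sequence. The members are 980 nt (Contig[0119]), 765 nt (Contig[0224]), 598 nt (Contig[0078]) and 721 nt (G-F7-5-SMART) long, against a median of 606 nt on the array. Mean GC content of their probes was 43.4%, 39.2%, 45.7% and 37.1% in the same order, against 42.1% over all probes. Of the 4 members, 3 were contigs, as were 109 of the 493 sequences.

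Values are log2 foreground intensities on a scale where 0 is about the mean spot of an array. Contig[0119] was at 0.87, 0.79, 0.73 and 0.79 in immature replicates 1 to 4, at 0.27, 0.12, 0.15 and -0.01 in iron and at 0.38, 0.41, 0.34 and 0.25 in calcium. Foot muscle was at -0.77, -1.03, -0.78 and -0.99. Every radula array was above 0 except iron replicate 4, every foot muscle array was well below it, and the closest radula array lay 0.76 above the closest foot muscle array. The section means exceeded foot muscle by 1.69 in immature (3.22-fold), 1.02 in iron (2.03-fold) and 1.23 in calcium (2.35-fold). Immature arrays did not overlap those of the other sections, whereas iron and calcium, 0.21 apart, did overlap.

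Contig[0224] was at -0.83, -0.89, -0.78 and -0.84 in immature replicates 1 to 4, at -0.31, -0.38, -0.06 and -0.16 in iron and at -0.69, -0.58, -0.37 and -0.64 in calcium. Foot muscle arrays were at -1.69, -1.72, -1.69 and -1.74. Here iron was the highest section and immature the lowest of the 3, and the foot muscle arrays were nearly equal. Immature exceeded foot muscle by 0.88 (1.84-fold), iron by 1.48 (2.79-fold) and calcium by 1.14 (2.21-fold). Iron and calcium overlapped in their arrays, and immature overlapped neither.

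Contig[0078] had the same order of tissues. Its values were -0.921, -1.193, -1.004 and -1.312 in immature replicates 1 to 4, -0.19, -0.45, -0.32 and -0.52 in iron, and -0.65, -0.97, -0.65 and -0.95 in calcium. Foot muscle was at -1.68, -1.87, -1.80 and -1.91. Iron arrays stood clear of all others, immature and calcium arrays overlapped, and the closest immature array lay 0.37 above the closest foot muscle array. The excess over foot muscle was 0.71 in immature (1.63-fold), 1.44 in iron (2.72-fold) and 1.01 in calcium (2.02-fold).

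G-F7-5-SMART declined in order along the radula, with means of -0.56 in immature, -1.02 in iron and -1.26 in calcium. Its immature arrays were at -0.66, -0.60, -0.44 and -0.53, its iron arrays at -1.04, -1.11, -0.89 and -1.03 and its calcium arrays at -1.38, -1.27, -1.06 and -1.32. Foot muscle was at -1.92, -1.74, -1.88 and -1.84, below every radula array by at least 0.36. It exceeded foot muscle by 1.29 in immature (2.44-fold), 0.83 in iron (1.77-fold) and 0.58 in calcium, the last being the smallest excess of any member and section. Iron and calcium arrays overlapped, and immature arrays overlapped neither.

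**Figure D1:**
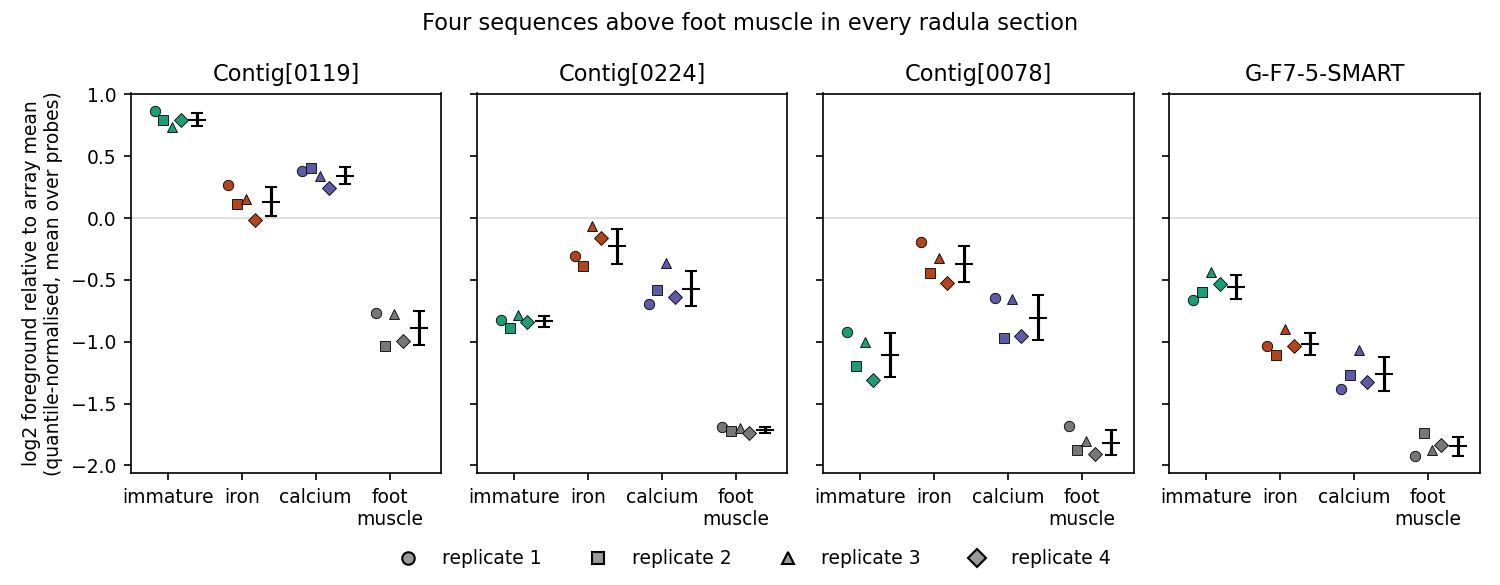
Log2 foreground relative to the array mean (vertical axis) of the 4 sequences in each of the 16 arrays, by tissue, with symbols for replicate numbers and bars for the mean ± SD of 4 arrays. All radula arrays sit above all foot muscle arrays of the same sequence, Contig[0119] and G-F7-5-SMART are highest in immature arrays, and Contig[0224] and Contig[0078] in iron arrays.

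The SD among the 4 arrays of a tissue lay between 0.022 and 0.18 over the members, whereas section means of one member lay 0.61 to 0.74 apart from highest to lowest. With the files as recorded, the range over the sections was 0.12 in G-F7-5-SMART and 0.45 in Contig[0119]. Immature was the highest section in 2 members, iron in 2 and calcium in 0. Over all 493 sequences, calcium was highest in 234, immature in 158 and iron in 101.

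The result of the linear model is given only as a background count, because the rule used the same contrasts. In limma with Benjamini-Hochberg adjustment, all 4 members were called higher in the mean of the sections, as were 20.1% of the 493 sequences. All 4 were also called in each section, with backgrounds of 15.6% for immature, 18.3% for iron and 12.8% for calcium. All 4 were called for a difference among the sections, against 42.6% of the sequences. With the files as recorded, 2 of the 4 were called, against 11.4% of the sequences. The 12 radula arrays lay above all 4 foot muscle arrays in the 4 members and in 6.29% of the sequences. Nothing is read from these counts. How the calls split depended on the scaling: of the sequences called between the radula mean and foot muscle, 28.4% were higher in the radula with quantile normalization, 52.7% with median centring, 58.0% with the values as deposited, 68.9% with cyclic loess and 40.4% with the median over probes. Over all sequences the median difference between radula and foot muscle was -0.10, and -0.34 with the values as deposited.

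Without the disputed arrays (n = 2 for immature and calcium), the excess over foot muscle was 1.69 in immature and 1.25 in calcium for Contig[0119], 0.91 and 1.18 for Contig[0224], 0.85 and 1.17 for Contig[0078] and 1.29 and 0.62 for G-F7-5-SMART. The order of tissues was the same in each. With the files as recorded, immature and calcium came close to each other, at 1.45 and 1.47 for Contig[0119], 1.004 and 1.015 for Contig[0224], 0.85 and 0.86 for Contig[0078] and 0.92 and 0.95 for G-F7-5-SMART. That assignment exchanges replicates 2 and 4 between immature and calcium, which draws their means together. Calcium then became the highest section in Contig[0119] and G-F7-5-SMART, while iron stayed the highest in Contig[0224] and Contig[0078]. The SD among immature and among calcium arrays was then 0.29 and 0.25 in Contig[0119], and 0.44 and 0.40 in G-F7-5-SMART. Their order of immature and calcium is not resolved under that assignment. The immature peak of the first pair was thus present with the value table's assignment and among the undisputed arrays, but not with the files as recorded. Iron and foot muscle hold no disputed array.

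Within a member, the probes had the same highest section throughout with the value table's assignment. It was immature in all 5 probes of Contig[0119] and all 5 of G-F7-5-SMART, and iron in all 5 of Contig[0224] and all 4 of Contig[0078]. Probes of one sequence share their arrays, and the share of all sequences with such agreement was not counted, so nothing is read from it. The probes differed in how far they lay above foot muscle. Contig[0119] was the most even, with radula means 1.06 to 1.79 above foot muscle, and each of its 5 probes met the rule alone. The probe at bases 929 to 963, near the end of the sequence, had foreground intensities of 392 to 431 units in foot muscle and 1685 to 4295 units in the radula, before any scaling between arrays. The arrays differed in brightness, with median foregrounds of 200 to 240 units in foot muscle and 204 to 426 units in the radula. After normalization the radula mean of this probe was 3.45-fold that of foot muscle.

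On Contig[0224] the difference was small at the probes nearest the start, 0.58 at bases 145 to 179 and 0.32 at bases 240 to 275. Both probes were dim in every tissue, with mean levels of -0.96 to -1.90. Over the 19 member probes the difference had a Pearson r of 0.86 with the level in the highest section, which is part of that difference, so position and brightness cannot be told apart here. On Contig[0224] the difference was 1.28, 1.70 and 1.95 at bases 449 to 483, 589 to 623 and 630 to 664. These last 3 probes met the rule alone. The sequence mean of 1.17 therefore averages probes with a 1.25-fold and a 3.87-fold difference. No probe of Contig[0078] reached a higher difference than the one at bases 259 to 293, at 1.61, which missed the rule alone because its sections lay 1.01 apart. The probe at bases 149 to 183 had the lowest difference of the contig, 0.39. G-F7-5-SMART had the lowest probe of all, 0.21 at bases 254 to 291, where 6 of the 12 radula arrays exceeded every foot muscle array, and reached 1.35 at bases 605 to 639. In all, 12 of the 19 probes met the rule alone, as did 0.893% of all probes, and 15 had the 12 radula arrays above all foot muscle arrays, as did 5.09% of all probes. Nothing is read from these counts, because the rule used the means of these probes, which are also part of all probes.

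**Figure D2:**
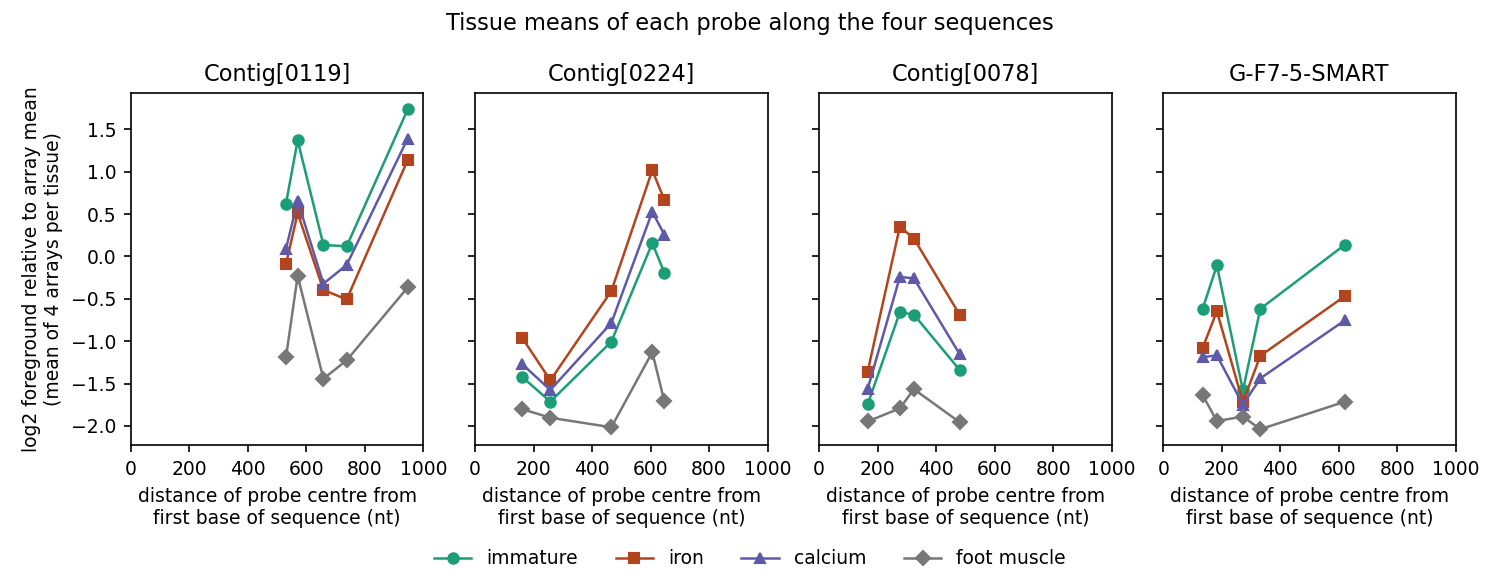
Mean log2 foreground of each probe (vertical axis, mean of 4 arrays) against the distance of the probe's centre from the first base of its sequence in nt, 1 panel per sequence and 1 line per tissue. The lines keep their order of highest section at each probe, and they close up at the dim probes of Contig[0224], Contig[0078] and G-F7-5-SMART.

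The dim end of an array was taken as the median of the lowest 5% of spots. Of the 19 member probes, 11 lay less than 0.5 above it in foot muscle, as did 38.8% of all probes, and the members' range was 0.16 to 1.97. The rule used the foot muscle values, and nothing is read from this count. The 5 probes of Contig[0119] were 0.75 or more above it. The files hold no background measurement, so that the size of the folds in RNA is not known. Normexp background correction with the value table's assignment raised the excess of the radula mean from 1.31 to 1.61 in Contig[0119], from 1.17 to 1.64 in Contig[0224], from 1.05 to 1.55 in Contig[0078] and from 0.90 to 1.37 in G-F7-5-SMART. The values as deposited, with no normalization between arrays, gave 1.38, 0.99, 0.83 and 0.65 in the same order. With them the lowest section exceeded foot muscle by 0.36 in Contig[0078] and by 0.37 in G-F7-5-SMART, under the 0.5 of the rule.

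Few sequences lay near the members in the selection values. Another 20 sequences lay at least 0.5 above foot muscle in every section but had sections 1 or more apart, and 14 sequences showed the opposite arrangement, at least 0.5 below foot muscle in every section with sections less than 1 apart. The radula mean of the members exceeded foot muscle by 0.90 to 1.31, with a median of 1.11. In the 20 sequences with wider sections it was 1.11 to 4.09, with a median of 1.78. No test sets these groups against each other, since both were chosen on these values.

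Just inside the limit of 0.5 lay G-F7-5-SMART (0.58 for its lowest section), Contig[0078] (0.71) and Contig[0224] (0.88). Just outside it were the clone plateD-C7-5SMART-primer (0.40), Contig[0099] (0.36) and PlateC-A3-5-SMART (0.28, with 1 probe). Just inside the limit on the range lay Contig[0078] (0.74), G-F7-5-SMART (0.70) and Contig[0119] (0.67), and just outside it Plate-B-A1-5-SMART (1.05), Contig[0001] (1.09) and Contig[0258] (1.14). Contig[0001] missed by 0.09 although its lowest section was 3.55 above foot muscle and its radula mean 16.4-fold higher. Its immature mean of 3.12 against 2.03 in iron placed it outside.

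**Figure D3:**
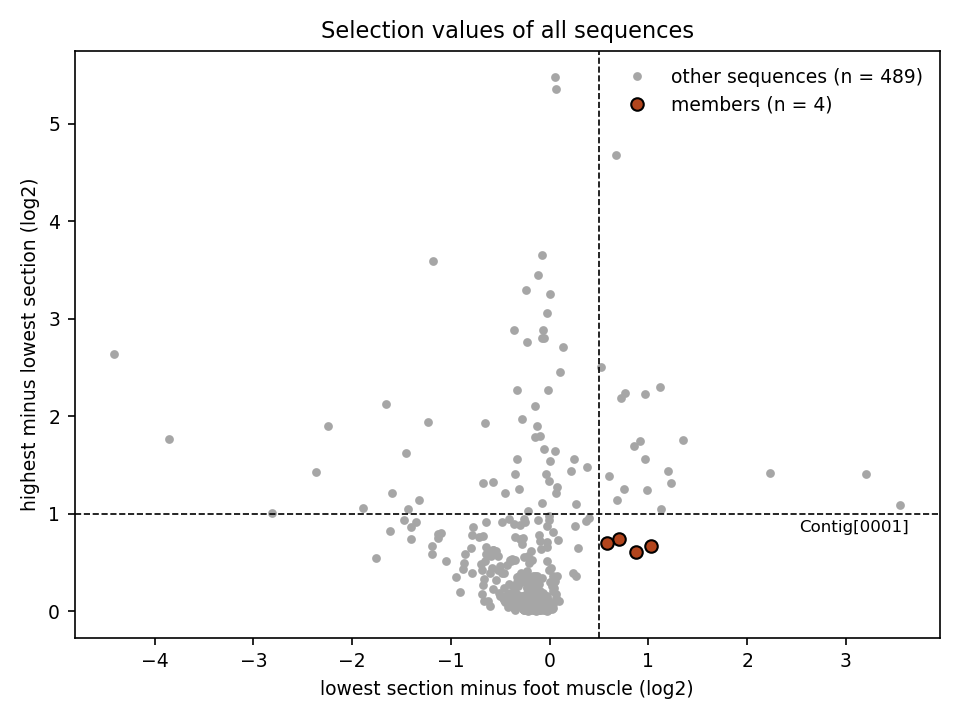
Lowest section minus foot muscle (horizontal axis, log2) against highest minus lowest section (vertical axis, log2) for all 493 sequences, with dashed lines at the limits of 0.5 and 1. The 4 members lie in the lower right corner, 0.61 to 0.74 on the vertical axis, and Contig[0001] lies just above the horizontal line.

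Whether arrays with the same replicate number moved together was not used by the rule, which averaged the 4 arrays of each tissue. A model with tissue and replicate number was tested by a moderated F-test in limma over all sequences. It called 1 of the 4 members, Contig[0078], for a difference between replicate numbers (limma adjusted p = 0.00061), against 49.3% of the 493 sequences. Replicates 1 and 3 of Contig[0078] were above the tissue mean in all 4 tissues, by 0.16 and 0.08 on average, and replicates 2 and 4 were below it in all 4, by -0.10 and -0.15. The call on Contig[0078] held in 24 of 26 other settings, with adjusted p between 0.0003 and 0.12, and ended in the 2 with the files as recorded. The others had limma adjusted p of 0.054 (Contig[0119]), 0.064 (Contig[0224]) and 0.062 (G-F7-5-SMART). Unadjusted, all 4 were under 0.05, as were 58.0% of the sequences. The labels do not say whether a number marks the same animals, nor which arrays were on one slide, so that pools, slides and scans cannot be told apart. Each scan carries an array number from 1 to 4, and the 4 arrays of one replicate number all had different ones. The same held within each tissue, with either assignment of the disputed arrays. By replicate, the array numbers were 2, 3, 4, 1 in iron and 4, 1, 2, 3 in foot muscle. With the files as recorded they were 1, 2, 3, 4 in immature and 3, 4, 1, 2 in calcium, the same rotating order. With the value table's assignment they were 1, 4, 3, 2 and 3, 2, 1, 4, which is not that order. Which assignment is right was not tested.

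Once tissue means were removed, the members did not move as one. Over 16 arrays, deviations of Contig[0224] and G-F7-5-SMART had a Pearson r of 0.76 and those of Contig[0119] and Contig[0078] one of 0.55. The other 4 pairs lay between -0.32 and 0.20. Contig[0224] and Contig[0078], which had the same order of tissues, had an r of 0.20. These are descriptions over arrays that share their scaling, with no test.

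**Figure D4:**
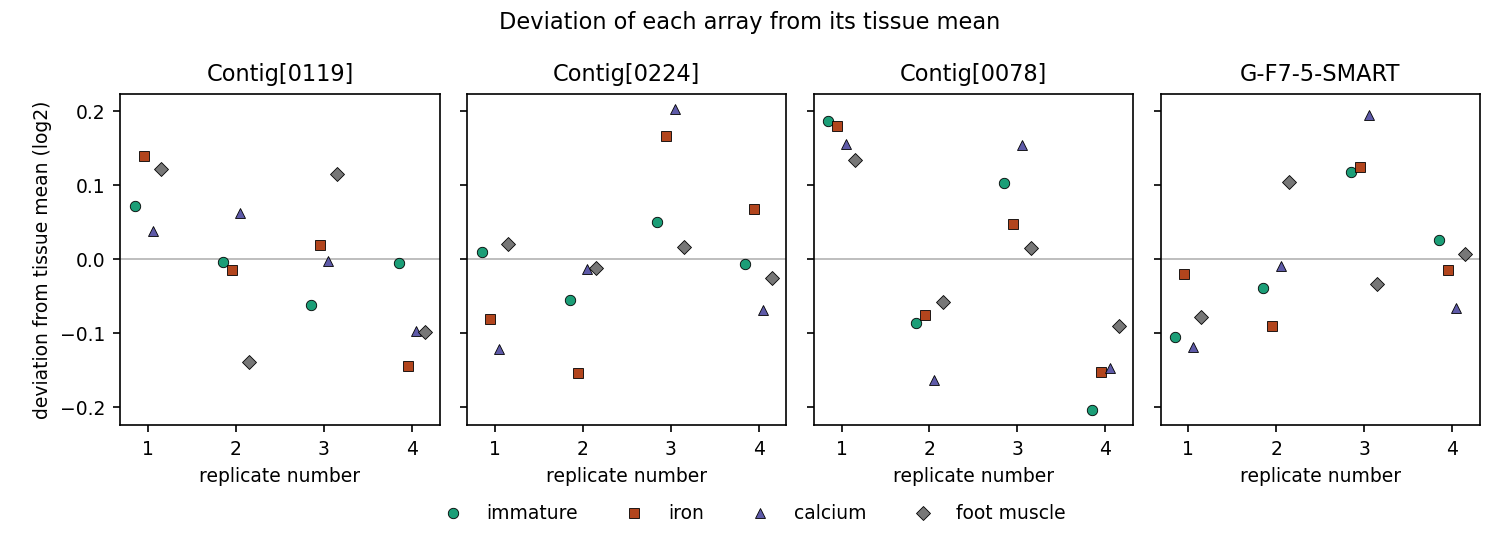
Deviation of each array from its tissue mean (vertical axis, log2) by replicate number (horizontal axis), 1 panel per sequence and 1 symbol per tissue. In Contig[0078], replicates 1 and 3 lie above 0 and replicates 2 and 4 below 0 in all 4 tissues. The other sequences also have replicates on one side of 0 in all 4 tissues: 1 above and 4 below in Contig[0119], 3 above and 2 below in Contig[0224], and 1 below in G-F7-5-SMART.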

How the data were processed

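Cy5-labelled RNA (Kreatech ampULSe kit, per the labels' protocols) was hybridised to single-colour arrays. Per the file headers, scanner tables hold the mean and median foreground intensity of each spot, with no background column. The authors' deposited value table holds a ratio, found by comparison to be the mean foreground of a probe over the mean of all probes of its array, on a linear scale with no centring. Column means are 1. No header or label names the scanning software.

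The ratios were log2-transformed, quantile-normalized, averaged per sequence and fitted over 16 arrays in R 4.3.3 with limma 3.58.1 (1 mean per tissue, eBayes, two-sided, Benjamini-Hochberg over 493 sequences, called under 0.05). Replicate numbers came from the titles. P-values measure the spread among the arrays of a tissue, in which pools, slides and scans cannot be told apart. The fit against foot muscle held no term for replicate number, for which 49.3% of the sequences were called. Depth is not defined for arrays, and their number limits the precision. Array values were to be printed for up to 12 members by size of difference, which took in all 4, with the 3 sequences nearest each limit. Members, lists and tests were chosen with earlier results of these data known. Which second probe is printed, the repeated runs and the dim end were chosen after seeing the data.

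Arrays of the same replicate number in a section and in foot muscle deviated together (r of 0.12 to 0.59 in the 12 pairs). Immature and calcium did not in 1 of 4 pairs, with r of -0.13.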

Additional observations from a re-analysis of the deposited data

How the results depend on the processing

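The rule gave 4 sequences, and all 4 met it in each alternative except the limits of 0.75 and 1 and the values as deposited. It gave 29 and 31 with the files as recorded, without and with normexp. It gave 2, 9 and 1 with a limit of 0.75, 0.25 and 1 in place of 0.5, and 14 with sections less than 1.5 apart. With 1 array left out it gave 4 to 6, the 6 without calcium replicate 3. With the values as deposited it gave 3, of which 2 were members (Contig[0119] and Contig[0224]). Calls of the members against foot muscle stayed at 4 except for 3 in immature and 3 in calcium with the values as deposited. The rule used these contrasts, so nothing is read from this. Over all sequences, calls in either direction numbered 305 in immature (109 to 365 in the alternatives), 345 in iron (98 to 396) and 213 in calcium (55 to 305). For a difference among the sections, 2 of the members were called with the files as recorded, with or without normexp. With a term for replicate number added to the fit, all 4 members stayed called in each of these comparisons. This covers the members only, which the rule chose on these values. The labels do not say whether a replicate number pairs the arrays. The count of members called between replicate numbers was 1 as reported. It was 0 with the files as recorded, with or without normexp, 2 with normexp in the value table's assignment, without the disputed arrays and with probes tested singly, 3 with the median foreground and with cyclic loess, 4 with median centring, and 1 to 4 with 1 array left out (4 without foot muscle replicate 3, 3 without foot muscle replicate 2, and 2 without immature replicate 3, immature replicate 4 or calcium replicate 2). Over all sequences, calls between radula mean and foot muscle numbered 349, and 88 with the values as deposited, 164 with cyclic loess, 165 with median centring and 223 with the median over probes. Calls between sections numbered 210, and 56 and 52 with the files as recorded. Calls between replicate numbers numbered 243, with 195 to 257 when 1 array was left out and 107 to 384 in the other alternatives. Because these calls over all sequences moved with the setting too, nothing is read from the member counts between replicate numbers. The direction over foot muscle reversed for 0 of the 4 members in 26 settings. The rule chose them for lying above foot muscle on these same arrays, so nothing is read from this.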

Other observations

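With the scanner files as recorded, 25 sequences met the rule beside the 4 members. With the value table's assignment, their sections lay 0.65 to 3.25 apart, with a median of 1.44. Of the 25, 15 lay at least 0.5 above foot muscle in each section but had sections 1 or more apart, and 10 had a section less than 0.5 above foot muscle. In 19 of the 25, immature and calcium were the sections farthest apart, with iron between them. The files as recorded exchange arrays between immature and calcium, which draws their means together and narrows such a gap. The share of all sequences with this arrangement was not counted. Nothing is therefore read from the 19.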
